A study of Mus musculus with 12 samples.

Results

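The collagen VI chains measured here are the 5 genes Col6a1, Col6a2, Col6a3, Col6a5 and Col6a6, chosen by gene name from the 54134 genes of the raw count table. RNA-seq was performed on inguinal white adipose tissue (iWAT) of 12 male C57BL/6J mice. Each mouse received 1e12 genome copies of an adeno-associated virus (AAV) of serotype 8 by tail vein at 8 weeks of age. The virus carried GFP in 6 mice (AAV-GFP, mice S_2011, S_2012, S_2013, S_2014, S_2021 and S_2022) and mouse Notum in 6 mice (AAV-Notum, mice S_2031, S_2032, S_2033, S_2034, S_2041 and S_2042). In both groups the transgene was driven by the human thyroxine binding globulin promoter, which is active in hepatocytes, so the vector was built to express in the liver and not in the fat that was sequenced. All mice were fed chow for 4 weeks after injection and fasted for 4 h before collection. The comparison asks how the transcripts of each chain in iWAT differ between AAV-Notum and AAV-GFP mice.

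Collagen VI is a microfibrillar collagen of the extracellular matrix. Its monomer is a triple helix of the Col6a1 product, the Col6a2 product and the third chain, usually that of Col6a3 and in some tissues that of Col6a4, Col6a5 or Col6a6. Monomers are assembled inside the cell and, once secreted, form beaded filaments around adipocytes and other cells. In adipose tissue the Col6a3 chain is known for endotrophin, a fragment cut from its C-terminal end, which acts on fibrosis and inflammation. NOTUM is a secreted enzyme that removes the lipid from WNT proteins and so inactivates them. RNA-seq reads count the transcripts of a chain and measure neither the protein nor the endotrophin fragment.

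The 5 chains lie in 3 places of the mouse genome (GENCODE vM21 annotation of GRCm38), all on the minus strand. Col6a1 (ENSMUSG00000001119, chr10:76708792-76726168) and Col6a2 (ENSMUSG00000020241, chr10:76595762-76623630) are separated by 85.2 kb. Col6a3 (ENSMUSG00000048126) is alone at chr1:90765923-90843971. Col6a6 (ENSMUSG00000043719, chr9:105687809-105828160) and Col6a5 (ENSMUSG00000091345, chr9:105856078-105960643) are 27.9 kb apart. Col6a4 (ENSMUSG00000032572), the remaining chain gene of the mouse, starts 28.8 kb beyond Col6a5 and is given for comparison only.

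The promoters of the 3 abundant chains are shown because their transcripts were lower together in AAV-Notum mice. Each is 300 bases of GRCm38.p6 from RefSeq, 5′ to 3′ on the gene's strand, from 250 bases before the transcript start to 50 bases after it. Capitals mark matches to the motifs searched on both strands: TATAAA (the TATA box), GGGCGG (a GC box), CTTTGA (a core of TCF/LEF sites), TGANTCA (AP-1) and GTCTAGAC (SMAD). The windows are chr10:76725995-76726294 for Col6a1, chr10:76623355-76623654 for Col6a2 and chr1:90843922-90844221 for Col6a3.
Col6a1: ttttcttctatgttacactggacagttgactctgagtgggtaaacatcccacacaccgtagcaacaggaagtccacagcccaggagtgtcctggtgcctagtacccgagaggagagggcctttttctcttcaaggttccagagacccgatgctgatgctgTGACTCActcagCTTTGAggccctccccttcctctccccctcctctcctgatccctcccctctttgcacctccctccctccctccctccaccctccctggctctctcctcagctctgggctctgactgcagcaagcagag
Col6a2: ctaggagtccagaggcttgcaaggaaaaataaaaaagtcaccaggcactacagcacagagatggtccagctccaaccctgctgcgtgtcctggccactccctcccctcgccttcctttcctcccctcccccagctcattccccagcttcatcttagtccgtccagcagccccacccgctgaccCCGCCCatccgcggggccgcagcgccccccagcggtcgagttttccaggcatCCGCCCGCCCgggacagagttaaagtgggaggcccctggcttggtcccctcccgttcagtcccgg
Col6a3: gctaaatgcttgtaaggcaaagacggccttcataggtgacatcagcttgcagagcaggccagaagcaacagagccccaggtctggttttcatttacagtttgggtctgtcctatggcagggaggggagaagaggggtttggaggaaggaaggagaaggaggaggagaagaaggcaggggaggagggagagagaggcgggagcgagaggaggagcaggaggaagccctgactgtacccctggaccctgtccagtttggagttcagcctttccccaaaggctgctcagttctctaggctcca

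The Col6a1 window held 1 TGANTCA match, found in 7.81% of 32851 RefSeq promoter windows, and 1 CTTTGA match, found in 5257 of them. In the Col6a2 window, 3 GGGCGG matches were found on the opposite strand, and the last 2 of them overlap. GGGCGG occurs in 35.7% of all windows. None of these letters was found in the Col6a3 window. A second RefSeq start of Col6a2 has a window with 1 GGGCGG and 1 CTTTGA match. The Col6a5 and Col6a6 windows held 1 and 2 GGGCGG matches and none of the other motifs. Thus no searched motif was present in the windows of all 3 abundant chains, and a match describes the sequence only.

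Total counts ran from 15266635 to 21618860 in AAV-GFP mice and from 14711113 to 17838229 in AAV-Notum mice. The RNA integrity number ran from 5.7 (mouse S_2011) to 7.6 in AAV-GFP mice and from 6.9 to 7.4 in AAV-Notum mice. Adipocyte markers summed to between 40290 and 90810 CPM (reads scaled to the normalized library size) over the 12 mice. Lymphoid markers differed between mice: their score, the mean log2 CPM of 15 genes, was -0.47, 0.14 and 3.54 in AAV-GFP mice S_2014, S_2011 and S_2012, and 6.10 to 6.71 in the other 3 AAV-GFP mice. In AAV-Notum mice it ran from 5.04 (mouse S_2042) to 7.06. Summed hepatocyte markers ran from 47.8 to 5808 CPM (AAV-GFP) and from 26.6 to 840.6 CPM (AAV-Notum), and skeletal muscle markers from 9.73 to 836.5 CPM and from 9.84 to 3936 CPM. In edgeR all 10 hepatocyte markers were lower in AAV-Notum mice (median log2 fold change -2.79), and 2 passed an unadjusted p under 0.05. All 7 Schwann and nerve markers were lower (median -0.46) and 1 passed, whereas all 9 muscle markers tested were higher and 0 passed. Of all genes, 9.54% were lower by that rule and 48.8% by sign. The part of hepatocyte, nerve and muscle RNA in the results was not tested. Notum itself had 1 to 17 reads in iWAT of AAV-GFP mice and 8 to 560 reads in AAV-Notum mice, which does not measure the transgene in the liver.

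Collagen VI transcripts in iWAT were mostly those of the Col6a1, Col6a2 and Col6a3 genes. These chains had 4682 to 17027 reads per mouse. Col6a5 had 5 to 178 reads and Col6a6 had 48 to 166. Levels were also scaled to the union of annotated exons, 4380 bases for Col6a1, 8326 for Col6a2 and 11963 for Col6a3. On this scale Col6a1 was the highest in AAV-GFP mice at 118.9 ± 35.4 CPM per kb (SD, n = 6). Its reads were nearly equal to those of Col6a2, so its place above Col6a2 rests on the annotated lengths. Col6a2 stood at 64.0 ± 19.8 and Col6a3 at 54.4 ± 15.2 CPM per kb. Within each mouse, Col6a2 over Col6a3 per exon base was 1.07 to 1.3 in AAV-GFP mice and 1.17 to 1.49 in AAV-Notum mice. Col6a6 had 0.628 ± 0.213 and Col6a5 0.343 ± 0.282 CPM per kb, with Col6a5 over Col6a6 at 0.0533 to 1.23 within each AAV-GFP mouse. In AAV-Notum mice the levels per kb were 71.9 ± 5.13 for Col6a1, 39.9 ± 2.34 for Col6a2 and 31.0 ± 3.75 for Col6a3 (SD, n = 6). The order of the means of the scarce chains was turned there, with Col6a5 at 0.608 ± 0.271 and Col6a6 at 0.511 ± 0.100 CPM per kb. Their ratio within each AAV-Notum mouse, Col6a5 over Col6a6, was 0.538 to 2.38.

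The 3 abundant chains were lower in AAV-Notum mice, with changes of the mean of -39.5% for Col6a1, -37.6% for Col6a2 and -43.1% for Col6a3, and the scarce chains were not separated between the groups. For Col6a3, which encodes the chain that carries endotrophin, the lowest, median and highest AAV-GFP mice had 464.3, 616.8 and 954.2 CPM. The AAV-Notum mice had 311.6, 365.5 and 427.3 CPM. The groups did not overlap, with AAV-GFP mouse S_2011 the highest of all. Col6a3 thus had a log2 fold change of -0.81 (standard error, SE, of 0.17, unadjusted p = 0.000436, adjusted p = 0.106, both by the edgeR quasi-likelihood test fitted on 15585 genes). The two-sided exact permutation test gave p = 0.00216, which is the lowest value possible with 6 mice in each group.

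Col6a1, one of the obligatory chains, had 345.5, 540.5 and 768.0 CPM in the lowest, median and highest AAV-GFP mice. In AAV-Notum mice the values were 286.1, 320.2 and 339.3 CPM. The groups did not overlap, although the gap between the highest AAV-Notum mouse and AAV-GFP mouse S_2013 was small. This gave a log2 fold change of -0.72 (SE 0.17, unadjusted p = 0.0013, adjusted p = 0.14 from edgeR, exact permutation p = 0.00216).

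Col6a2, the other obligatory chain, had 346.2, 553.7 and 800.6 CPM in the lowest, median and highest AAV-GFP mice. Values in AAV-Notum mice were 311.7, 333.6 and 353.1 CPM. Here the groups overlapped, since 3 of 6 AAV-Notum mice lay under the whole AAV-GFP range and AAV-GFP mouse S_2013 lay within the AAV-Notum range. For Col6a2 the log2 fold change came to -0.68 (SE 0.18, unadjusted p = 0.00239, adjusted p = 0.152 from edgeR, exact permutation p = 0.00866).

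**Figure D1:**
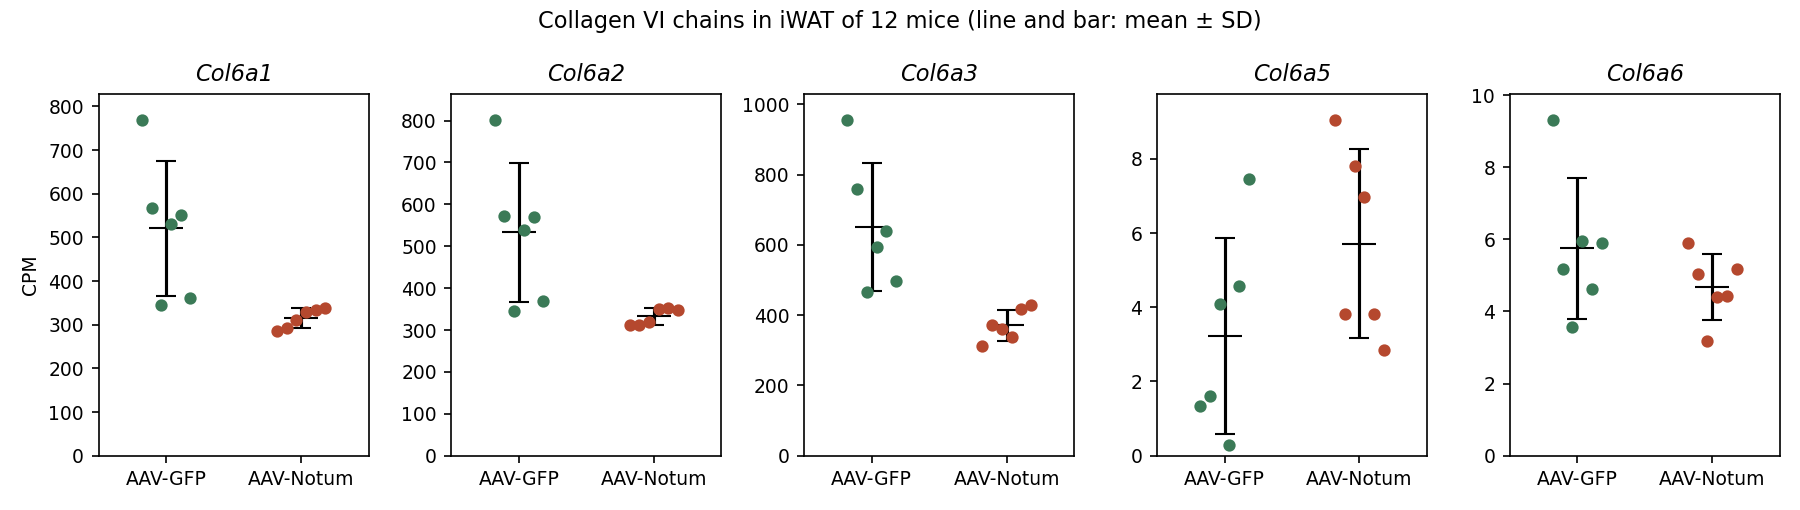
Level of each collagen VI chain in iWAT in CPM (vertical axis, from 0, with its own scale in each panel) for 6 AAV-GFP and 6 AAV-Notum mice. Points are mice, and the line and bar are the mean and SD; Col6a1 and Col6a3 do not overlap between the groups, whereas Col6a5 and Col6a6 do.

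Col6a5, which encodes an alternative to the Col6a3 chain, had a lowest, median and highest level of 0.298, 2.85 and 7.45 CPM with AAV-GFP and of 2.85, 5.39 and 9.04 CPM with AAV-Notum. The ranges overlapped widely. Its log2 fold change of 0.82 (SE 0.58) did not pass (unadjusted p = 0.177, adjusted p = 0.48 from edgeR, exact permutation p = 0.108). With 1 mouse left out at a time, the log2 fold change ran from 0.59 without AAV-GFP mouse S_2014 (unadjusted p = 0.229, adjusted p = 0.675 from edgeR) to 1.26 without AAV-GFP mouse S_2022 (unadjusted p = 0.0474, adjusted p = 0.205). Col6a6, another such alternative, had 3.57, 5.55 and 9.30 CPM with AAV-GFP and 3.18, 4.73 and 5.89 CPM with AAV-Notum. This was a log2 fold change of -0.29 (SE 0.22, unadjusted p = 0.206, adjusted p = 0.499 from edgeR, exact permutation p = 0.277). It ran from -0.40 without AAV-GFP mouse S_2013 (unadjusted p = 0.0781) to -0.10 without AAV-GFP mouse S_2011 (unadjusted p = 0.586) in edgeR's quasi-likelihood test. The SD of log2 CPM was 1.52 in AAV-GFP mice and 0.66 in AAV-Notum mice for Col6a5, and 0.45 and 0.30 for Col6a6, so neither difference was larger than the SD of the AAV-GFP mice.

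Of the 5 chains, 3 were lower at an unadjusted p under 0.05 and none was higher, whereas 9.54% of the 15585 genes tested were lower by that rule and 4.64% were higher. Groups without overlap were found for 2 of the 5 chains, both lower, against 0.693% of all genes with separate groups in the lower direction and 0.398% in the higher direction. At an adjusted p under 0.05, edgeR called 0 of the 5 chains, where 0.0513% of all genes were called lower. The limma-voom fit also called 0, and DESeq2 called the 3 abundant chains lower (adjusted p = 0.00915 for Col6a1, 0.0203 for Col6a2 and 0.00112 for Col6a3), with 2.32% of genes called lower by the same rule. By sign alone 4 of the 5 were lower, as were 48.8% of all genes. The median log2 fold change of the 5 chains was -0.68, beside 0.008 for all genes tested. Fewer cells that make a chain and less RNA per cell cannot be told apart in whole tissue.

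The mice differed more in the AAV-GFP group than in the AAV-Notum group. For Col6a1 the SD of log2 CPM was 0.43 in AAV-GFP mice and 0.10 in AAV-Notum mice. For Col6a2 it was 0.45 and 0.08, and for Col6a3 0.39 and 0.18. An SD in AAV-GFP mice at least 2 times that in AAV-Notum mice was found in 17.8% of all genes. No test of the spread was run. AAV-GFP mouse S_2011 had the highest level of Col6a1, Col6a2, Col6a3 and Col6a6 and the lowest RNA integrity number, and its part in the spread was not tested. Without it the log2 fold changes were -0.58 for Col6a1, -0.53 for Col6a2 and -0.67 for Col6a3, all with an unadjusted p under 0.05 in edgeR's quasi-likelihood test. RNA of AAV-GFP mouse S_2012 was isolated on a later day than that of the other mice, and without it the log2 fold changes were -0.70, -0.66 and -0.77 in the same order.

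All 15 lymphoid markers had a higher fitted level in AAV-Notum mice, whereas 48.8% of all genes were lower by sign. However, 0 of 15 passed an unadjusted p under 0.05 (4.64% of all genes were higher by that rule), and the low scores were those of 3 AAV-GFP mice. The summed level of the markers was 10.9 to 1673 CPM with AAV-GFP and 539.5 to 2262 CPM with AAV-Notum, and none of them was at 0 in every mouse. Col6a5 was at 0.298, 1.35 and 1.61 CPM in mice S_2014, S_2011 and S_2012, the AAV-GFP mice with the lowest lymphoid scores, and at 4.10 to 7.45 CPM in the other 3 AAV-GFP mice. Col6a4 was low in the same mice, with 0.119, 0 and 2.44 CPM in mice S_2014, S_2011 and S_2012 and 9.14 to 21.2 CPM in the other 3. The 2 lowest AAV-GFP levels of Col6a3 were those of mice S_2013 and S_2022, which had the highest lymphoid scores of their group.

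With the lymphoid score as a covariate in edgeR's quasi-likelihood fit, the log2 fold changes were -0.44 for Col6a1 (unadjusted p = 0.0113, adjusted p = 0.423), -0.39 for Col6a2 (unadjusted p = 0.0253, adjusted p = 0.481) and -0.57 for Col6a3 (unadjusted p = 0.00306, adjusted p = 0.376). In that fit 4.87% of all genes were lower at an unadjusted p under 0.05. Col6a5 had a log2 fold change of 0.10 and Col6a6 one of -0.01, and that of Col6a4 turned from 0.80 to -0.24, none with an unadjusted p under 0.05. Among the mice with a lymphoid score above 6 (3 AAV-GFP and 5 AAV-Notum), picked once the data had been seen, the log2 fold changes were -0.43 for Col6a1, -0.38 for Col6a2 and -0.57 for Col6a3.

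**Figure D2:**
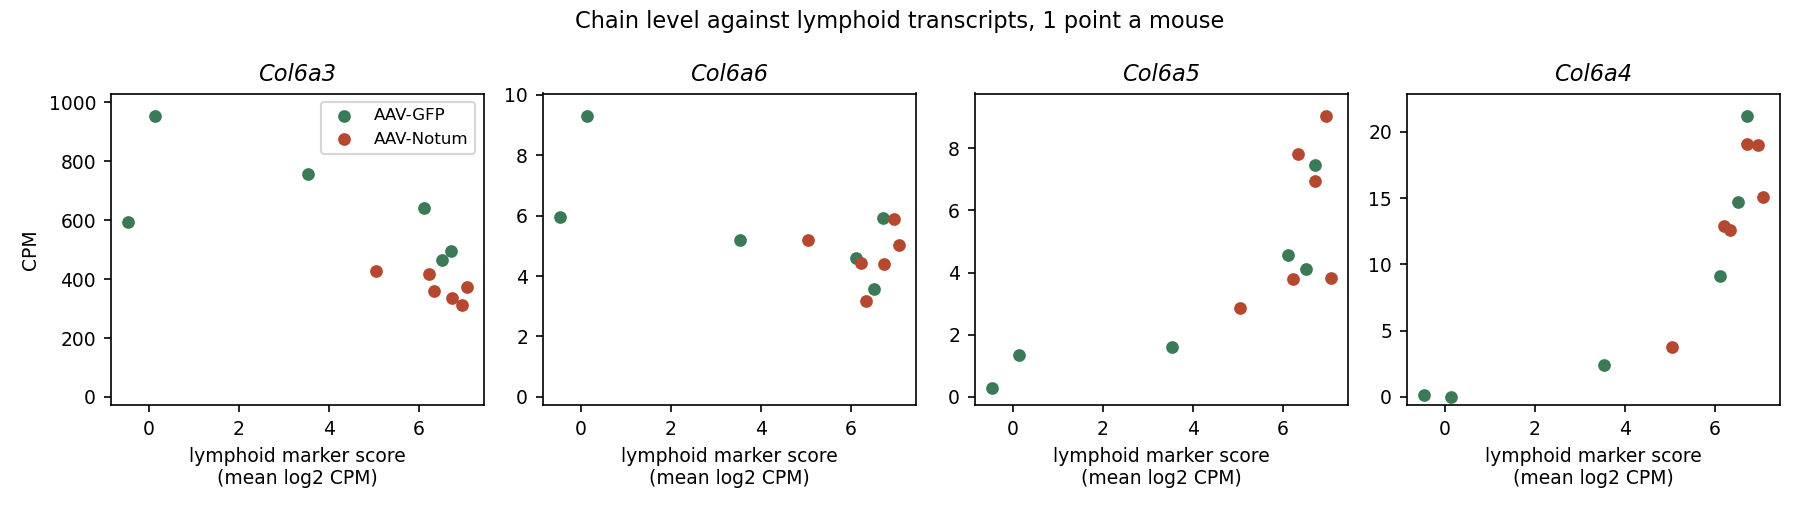
Level of 4 collagen VI chain genes in CPM (vertical axis, own scale in each panel) against the lymphoid marker score, the mean log2 CPM of 15 markers (horizontal axis), with 1 point for each of 12 mice. Col6a5 and Col6a4 are lowest in the 3 AAV-GFP mice with the lowest scores, and among the mice with a score above 6 the AAV-Notum mice lie below the AAV-GFP mice for Col6a3.

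Ratios between chains were computed within each mouse, since such a ratio needs no library size. Of 10 ratios between the 5 chains, 0 passed an adjusted p under 0.05 in the two-sided exact permutation test with Benjamini-Hochberg adjustment, and 5 had an unadjusted p under 0.05. Col6a1 over Col6a2 was nearly constant, at 0.959 to 0.998 in AAV-GFP mice and 0.918 to 0.978 in AAV-Notum mice. The log2 difference between the groups was -0.05 (95% interval -0.09 to -0.01, exact permutation p = 0.0216, adjusted p = 0.0823), with each of the 6 AAV-Notum ratios under the mean of AAV-GFP. Per exon base, Col6a1 exceeded Col6a2 by 1.82 to 1.90 times in AAV-GFP mice and by 1.74 to 1.86 times in AAV-Notum mice. This excess rests on the annotated exon lengths, since the reads of these chains were nearly equal.

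The ratio of Col6a1 to Col6a3 was 0.728 to 0.895 in AAV-GFP mice and 0.785 to 0.978 in AAV-Notum mice, a log2 difference of 0.10 (95% interval -0.06 to 0.27, exact permutation p = 0.182, adjusted p = 0.182). Col6a2 over Col6a3 was 0.745 to 0.907 and 0.812 to 1.04, a log2 difference of 0.15 (95% interval -0.03 to 0.33, exact permutation p = 0.0714, adjusted p = 0.102). For Col6a2 over Col6a3 all 6 AAV-Notum mice lay above the AAV-GFP mean, but the groups overlapped. Col6a3 made up 35.6% to 40.0% of the reads of the 5 chains in AAV-GFP mice and 32.8% to 38.1% in AAV-Notum mice.

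The ratios to the scarce chains had wider intervals. Col6a3 over Col6a6 was 83.7 to 145.5 in AAV-GFP mice and 52.6 to 111.7 in AAV-Notum mice, a log2 difference of -0.52 (95% interval -0.95 to -0.08, exact permutation p = 0.026, adjusted p = 0.0823). Col6a3 over Col6a5 ran from 66.4 to 1810 in AAV-GFP mice and from 34.4 to 148.3 in AAV-Notum mice, a log2 difference of -2.06 (95% interval -3.94 to -0.22, exact permutation p = 0.0303, adjusted p = 0.0823). The highest ratio was that of AAV-GFP mouse S_2014, which had 5 reads of Col6a5. Without AAV-GFP mouse S_2022, 7 of the 10 ratios passed, namely all those to Col6a6 or Col6a5 from the abundant chains and Col6a1 over Col6a2. Without AAV-GFP mice S_2011 and S_2014, the log2 difference of Col6a3 over Col6a5 was -1.08 (exact permutation p = 0.124), and among mice with a lymphoid score above 6 it was -0.75 (exact permutation p = 0.161). In either set 0 of the 10 ratios passed, and the smallest exact permutation p that these mice allow is 0.00476 and 0.0179.

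**Figure D3:**
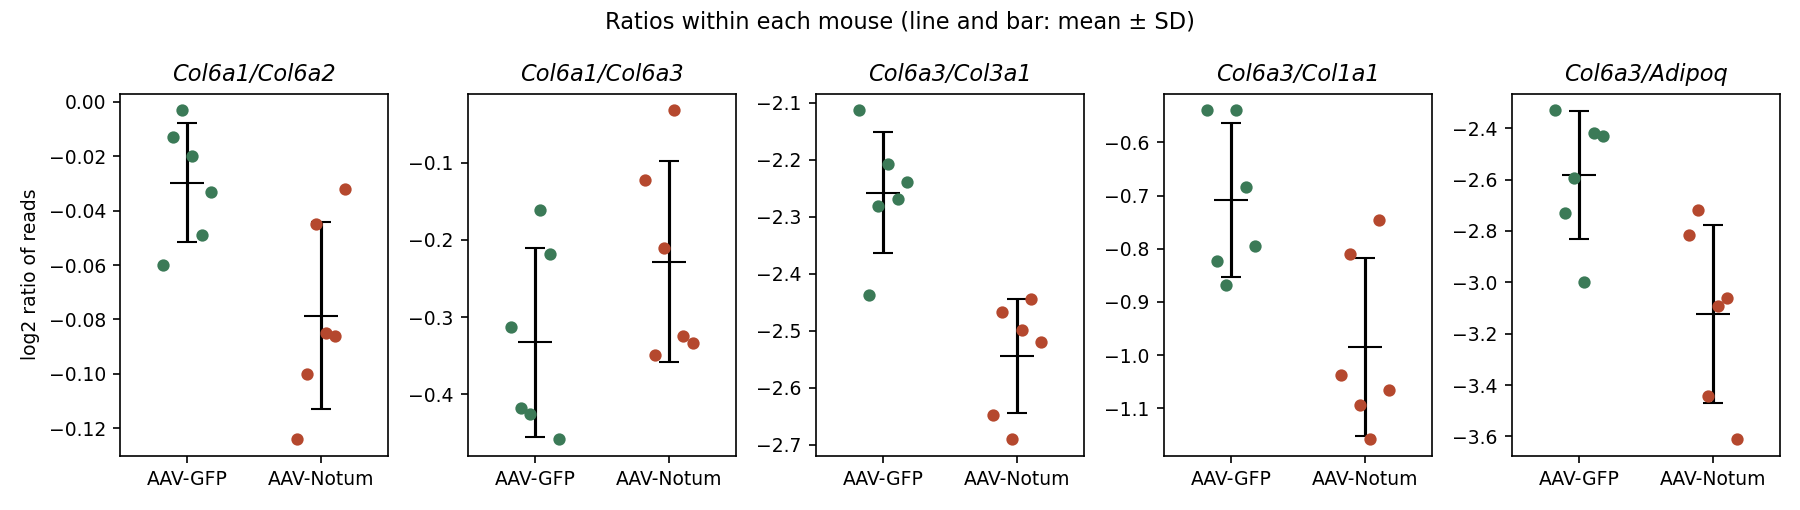
Log2 ratio of reads within each mouse (vertical axis, own scale in each panel) for 5 pairs of genes in 6 AAV-GFP and 6 AAV-Notum mice, with the mean and SD as line and bar. Col6a3 over Col3a1 does not overlap between the groups, and the other pairs shown do.

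To see whether the chains differed from other matrix and cell transcripts, Col6a1, Col6a2 and Col6a3 were each set against 5 genes. These were Col1a1 and Col3a1 (fibrillar collagens), Col4a1 (a basement membrane collagen), Pdgfra (a receptor of adipose progenitors) and Adipoq (adiponectin, made by adipocytes). Of the 15 ratios, Col6a3 over Col3a1 alone passed the adjusted threshold. It was 0.185 to 0.231 in AAV-GFP mice and fell to 0.155 to 0.184 in AAV-Notum mice, with no overlap between the groups. The log2 difference was -0.29 (SE 0.06, 95% interval -0.42 to -0.15, exact permutation p = 0.00216, adjusted p = 0.0325). The boundary was narrow, since AAV-GFP mouse S_2012 and AAV-Notum mouse S_2041 had log2 ratios of -2.437 and -2.444. Leaving out any 1 of the AAV-Notum mice S_2031, S_2032, S_2033, S_2034, S_2041 or S_2042 gave an adjusted p of 0.0649, so 0 ratios passed. The groups still did not overlap in any of these smaller sets (exact permutation p = 0.00433), so the lost pass does not show that the difference rests on 1 mouse. Its log2 value stayed between -0.32 and -0.26 over all 12 mice left out in turn.

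Col6a3 over Col1a1 had a log2 difference of -0.28 (95% interval -0.49 to -0.07, exact permutation p = 0.0195, adjusted p = 0.0812). Against Pdgfra, Col6a3 differed by -0.32 (95% interval -0.60 to -0.05, exact permutation p = 0.0216, adjusted p = 0.0812). Against Adipoq the difference was -0.54 (95% interval -0.94 to -0.14, exact permutation p = 0.013, adjusted p = 0.0812). For each of these ratios all 6 AAV-Notum values lay under the mean of AAV-GFP, and 4 of 6 lay under its whole range. The ratio of Col6a3 to Col4a1 differed by -0.12 (95% interval -0.33 to 0.11, exact permutation p = 0.281, adjusted p = 0.377). With 1 mouse left out at a time this difference ran from -0.18 to -0.05 (exact permutation test, adjusted p from 0.119 to 0.558). Col6a1 over Col4a1 differed by -0.01 (95% interval -0.19 to 0.18, exact permutation p = 0.898, adjusted p = 0.898), and Col6a2 over Col4a1 by 0.04 (95% interval -0.17 to 0.25, exact permutation p = 0.693, adjusted p = 0.742). The remaining 8 ratios, of Col6a1 and Col6a2 to the other 4 genes, lay between -0.44 and -0.12 and did not pass.

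**Figure D4:**
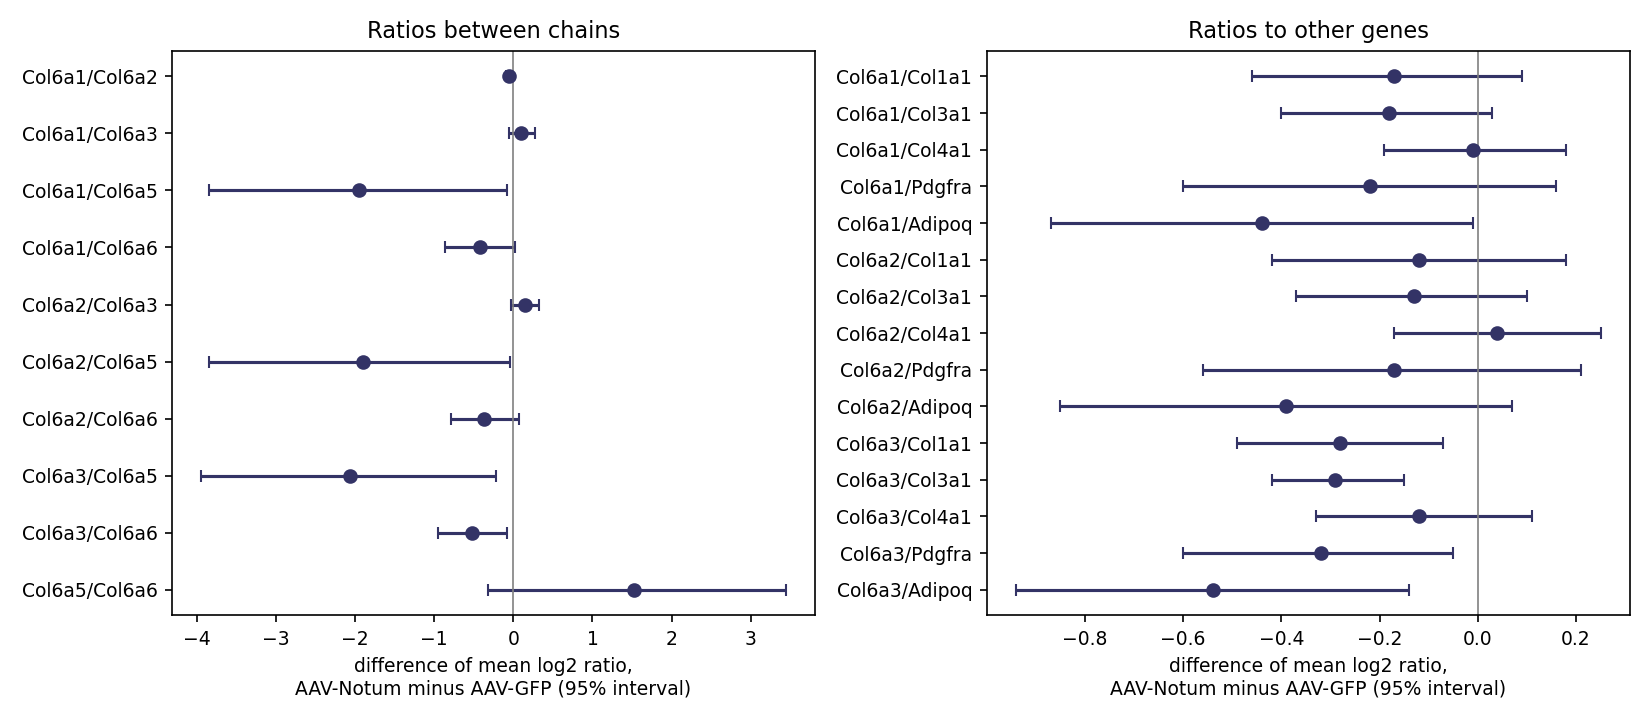
Difference of the mean log2 ratio, AAV-Notum minus AAV-GFP (horizontal axis, own scale in each panel), with its 95% interval from the exact permutation test for 10 ratios between chains (left) and 15 ratios to other genes (right). The intervals of ratios to Col6a5 are the widest, and that of Col6a3 over Col3a1 runs from -0.42 to -0.15.

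Correlations between chains were computed within each group. Over 20 relations (10 pairs in 2 groups of 6 mice), Col6a1 and Col6a2 had Pearson's r of 1.00 and Spearman's rho of 1.00 in AAV-GFP mice (exact permutation p = 0.00139 and 0.00278, adjusted p of r = 0.00927), with r of 1.00 without the 2 mice farthest from the median. In AAV-Notum mice r was 0.95 and rho 0.83 (exact permutation p = 0.0125 and 0.0583, adjusted p of r = 0.05), and r was 0.91 without 2 mice. Col6a1 and Col6a3 had r of 0.96 and rho of 1.00 in AAV-GFP mice (exact permutation p = 0.00139 and 0.00278, adjusted p of r = 0.00927, r of 0.94 without 2 mice). In AAV-Notum mice their r was 0.67 and rho 0.77 (exact permutation p = 0.15 and 0.103, adjusted p of r = 0.333, r of 0.58 without 2 mice). Col6a2 and Col6a3 had r of 0.96 and rho of 1.00 in AAV-GFP mice (exact permutation p = 0.00139 and 0.00278, adjusted p of r = 0.00927, r of 0.92 without 2 mice). In AAV-Notum mice r was 0.57 and rho 0.49 (exact permutation p = 0.236 and 0.356, adjusted p of r = 0.427, r of 0.36 without 2 mice). The 3 relations among the abundant chains in AAV-GFP mice had an adjusted p under 0.05, and none of the other 17 relations did. In AAV-Notum mice Col6a3 and Col6a5 had r of -0.91 and rho of -0.94 (exact permutation p = 0.0111 and 0.0167, adjusted p of r = 0.05, r of -0.76 without 2 mice). In AAV-GFP mice their r was -0.42 and rho -0.43 (exact permutation p = 0.415 and 0.419, adjusted p of r = 0.549, r of -0.33 without 2 mice). The other 12 relations, between Col6a5 or Col6a6 and another chain, had an adjusted p of r from 0.236 to 0.858. The range of levels was smaller in AAV-Notum mice, and the difference between the groups in r was not tested. The AAV-GFP mice differ in their lymphoid scores, which these correlations share.

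The genes whose log2 CPM was most like that of each abundant chain were ranked by Pearson's r over the 12 mice after subtracting each group's mean, as a description. For Col6a1 these were Col6a2 (r = 0.996), Col5a1 (0.983), S100a10 (0.954), Ddost (0.942) and Serpinh1 (0.939). Col5a1 encodes a chain of fibrillar collagen V and Serpinh1 a collagen chaperone of the endoplasmic reticulum, whereas Ddost encodes a subunit of the oligosaccharyltransferase that glycosylates proteins there. For Col6a2 they were Col6a1 (0.996), Col5a1 (0.977), S100a10 (0.939), St3gal2 (0.938) and Ddost (0.931). Col6a3 had another list: Mgl2 (0.971), a lectin of macrophages, Col3a1 (0.939), Snx32 (0.928), Pcolce (0.927), an enhancer of procollagen processing, and Plxdc2 (0.926). Col6a1 was 10th and Col6a2 20th in the order for Col6a3, with r of 0.917 and 0.904. The abundant chains spread more among AAV-GFP mice, which therefore weigh more in these orders. Without AAV-GFP mice S_2011 and S_2014, r of the listed genes ran from 0.86 to 0.99.

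Receptors of collagen VI were measured in the same fit. Of 10 receptor genes tested, 7 had a lower level in AAV-Notum mice and 5 passed an unadjusted p under 0.05, all lower, with a median log2 fold change of -0.23, where 9.54% of all genes were lower at that p and 48.8% by sign. Ddr2, a collagen-binding receptor tyrosine kinase, had 90.6 to 147.8 CPM with AAV-GFP and 72.8 to 105.3 CPM with AAV-Notum, that is a log2 fold change of -0.48 (unadjusted p = 0.00261, adjusted p = 0.152 from edgeR). Itga1, Itga3 and Itgb1, subunits of integrins that bind collagen or other matrix, had log2 fold changes of -0.33, -0.31 and -0.31, and Antxr2, an anthrax toxin receptor that binds collagen VI, one of -0.27. Antxr1, the related receptor for endotrophin, had 24.3 ± 5.35 CPM with AAV-GFP and 28.1 ± 3.41 CPM with AAV-Notum (SD, n = 6), for a log2 fold change of 0.21 that did not pass (unadjusted p = 0.18, adjusted p = 0.481 from edgeR). That of Antxr1 ran from 0.12 to 0.28 with 1 mouse left out at a time. Adjusted for the lymphoid score, 1 receptor gene was lower at an unadjusted p under 0.05, as were 4.87% of all genes. Without AAV-GFP mouse S_2012 or S_2014 the count was 2, and without AAV-GFP mouse S_2011 or AAV-Notum mouse S_2031, S_2032, S_2033 or S_2034 it was 3. In those fits 6.67% to 8.23% of all genes were lower by the same rule.

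Of 13 genes of matrix proteins that bind collagen VI, 10 were tested, 9 had a lower level in AAV-Notum mice and 5 passed an unadjusted p under 0.05, all lower (median log2 fold change -0.38), again beside 9.54% of all genes at that p and 48.8% by sign. These were Dcn (decorin, -0.39), Tnxb (tenascin X, -0.72), Hspg2 (perlecan, -0.80), Col4a1 (-0.71) and Col4a2 (-0.69), of which the last 2 are also counted among the basement membrane collagens. Matn1, Matn3 and Matn4, which encode matrilins that link collagen VI to other fibres, had 0 to 14 reads and were not tested. Adjusted for the lymphoid score, 3 of the 10 passed in the lower direction, against 4.87% of all genes.

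Genes that cut procollagens or the C-terminal end of the Col6a3 chain were 7 of 8 tested, and 3 passed an unadjusted p under 0.05, all lower (median log2 fold change -0.18), with 9.54% of all genes lower by that rule. Bmp1, a procollagen C-proteinase, had 54.4 ± 10.4 CPM with AAV-GFP and 39.8 ± 5.10 CPM with AAV-Notum (SD, n = 6), for a log2 fold change of -0.45 (unadjusted p = 0.00469, adjusted p = 0.173 from edgeR). Pcolce, which enhances Bmp1, had a log2 fold change of -0.54, and Furin, a proprotein convertase, one of -0.18. Mmp14, a membrane-bound matrix metalloproteinase that can release endotrophin, had 60.6 to 102.6 CPM with AAV-GFP and 86.1 to 137.4 CPM with AAV-Notum, for a log2 fold change of 0.24 that did not pass (unadjusted p = 0.123, adjusted p = 0.435 from edgeR). That of Mmp14 ran from 0.15 to 0.29 with 1 mouse left out at a time. With the lymphoid score as a covariate, 1 of the 7 was lower at an unadjusted p under 0.05, a count too small to set against the 4.87% of all genes.

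Among other collagens, lower levels were found for part of each list. Of 11 fibrillar collagen genes 10 were tested and 6 passed an unadjusted p under 0.05, all lower (median log2 fold change -0.54, 9.54% of all genes lower by that rule), among them Col1a1 (-0.52), Col1a2 (-0.57), Col3a1 (-0.53) and Col5a1 (-0.68). The other 4 (Col11a1, Col11a2, Col24a1 and Col27a1) did not pass, and Col11a2 had a higher level in AAV-Notum mice. Of 8 basement membrane collagen genes 7 were tested and 5 passed, all lower (median log2 fold change -0.64), led by Col18a1 (-0.87), and Col4a3 and Col15a1 did not pass. In the fit with the lymphoid score, 3 fibrillar and 2 basement membrane collagen genes were lower at an unadjusted p under 0.05, where 4.87% of all genes were. The basement membrane count was 3 without any 1 of AAV-GFP mice S_2011 and S_2014 and AAV-Notum mice S_2031, S_2033, S_2034 and S_2041, in fits where 6.67% to 8.58% of all genes were lower. At an adjusted p under 0.05, edgeR called 0 genes of the receptor, matrix partner, processing, fibrillar and basement membrane lists. DESeq2 called 1, 4, 1, 3 and 3 of them lower and 0 higher, in that order, with 2.32% of all genes called lower by that rule, and limma-voom called 0.

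Markers of fibroblasts and adipose progenitors, cells known to make collagen VI, were mixed. Of 14 tested, 6 passed an unadjusted p under 0.05, all lower (Pdgfra, Dcn, Fbln1, Mfap5, Dpt and Fap), another 4 had a lower and 4 a higher level in AAV-Notum mice without passing, the last being Dpp4, Ly6a, Col14a1 and Cd55. Their log2 fold changes ran from -0.99 to 0.65, with a median of -0.25. Their summed level was 1733 to 3060 CPM with AAV-GFP and 1634 to 2110 CPM with AAV-Notum. Pdgfra, a receptor of these cells, had 82.1 ± 20.1 CPM with AAV-GFP and 58.5 ± 3.26 CPM with AAV-Notum (SD, n = 6), for a log2 fold change of -0.49 (unadjusted p = 0.00407, adjusted p = 0.167 from edgeR). Of 12 adipocyte markers, 10 had a lower level and 1 passed, in the lower direction (median log2 fold change -0.29, summed level 47950 to 80840 CPM with AAV-GFP and 40290 to 90810 CPM with AAV-Notum). Of 8 endothelial markers, 7 had a lower level and 3 passed, all lower (median log2 fold change -0.33, summed level 626.9 to 1004 CPM with AAV-GFP and 602.9 to 789.6 CPM with AAV-Notum). Of 8 mural and smooth muscle markers, 5 had a lower level and 2 passed, both lower (median -0.27, summed level 394.2 to 626.1 CPM and 372.9 to 501.8 CPM). Of 9 macrophage markers, 6 had a lower level and 2 passed, both lower (median -0.10, range -0.94 to 0.57, summed level 513.0 to 1574 CPM and 911.6 to 1738 CPM), and Cd163 alone among them had groups without overlap. These shares stand beside 9.54% of all genes lower by the same rule, and no marker of these 5 lists passed an adjusted p under 0.05 in edgeR. Separate groups in the lower direction, as for Cd163, were found in 0.693% of all genes. No marker of these 5 lists was at 0 in every mouse. The part of any of these cell types in the lower chain levels was not tested.

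**Figure D5:**
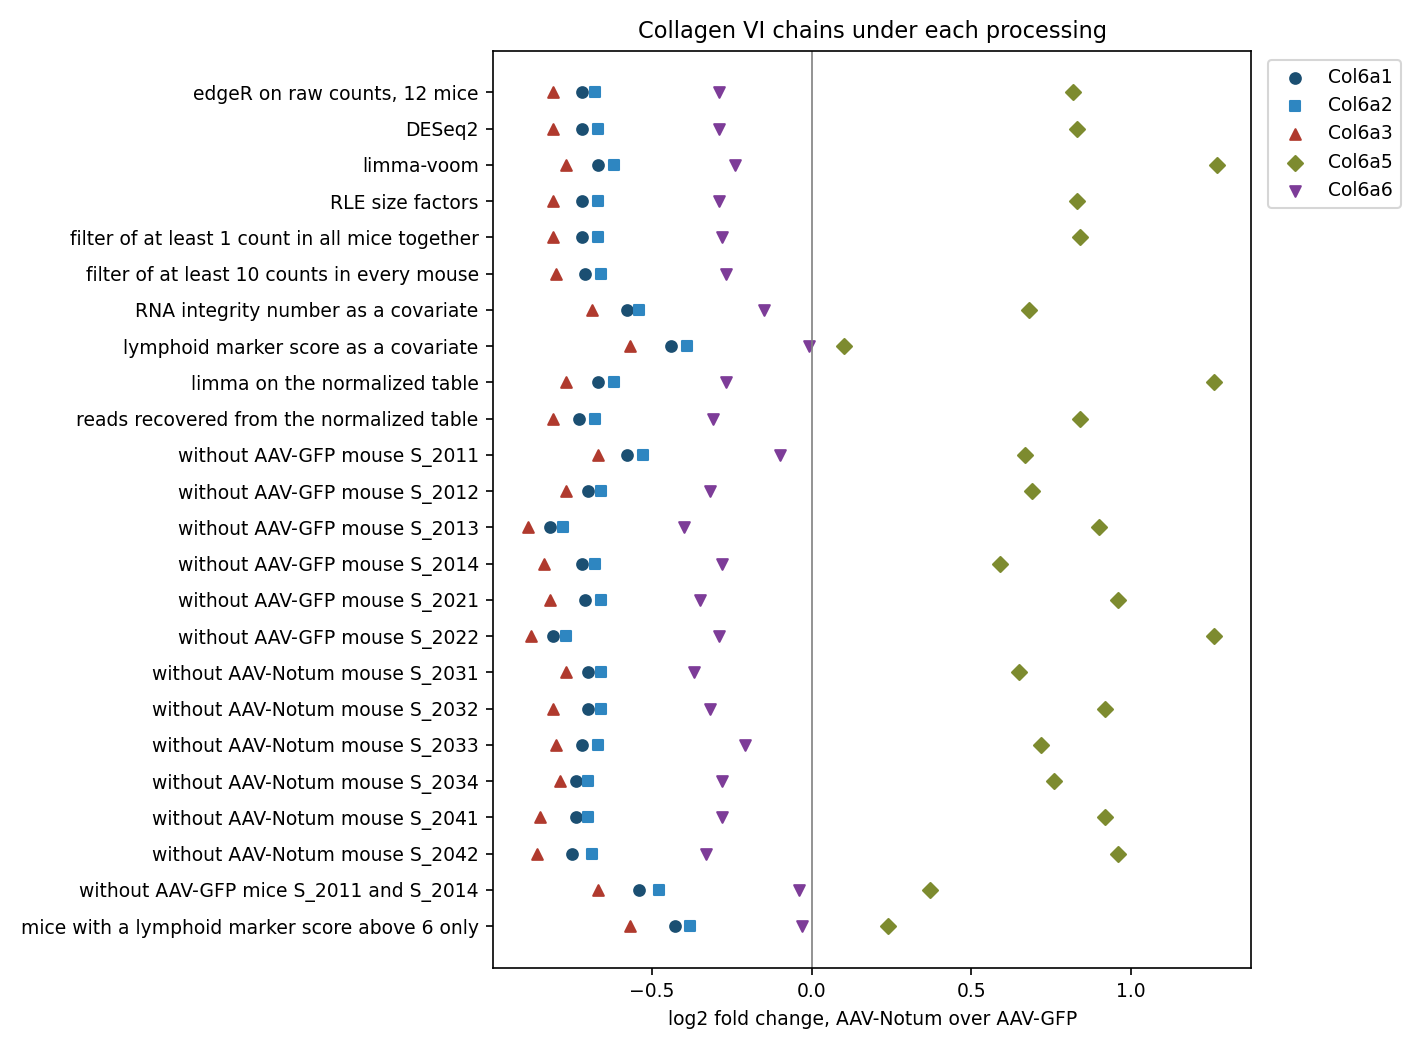
Log2 fold change of each collagen VI chain, AAV-Notum over AAV-GFP (horizontal axis), in edgeR on the raw counts and in 23 other processings or subsets of mice (vertical axis). Col6a1, Col6a2 and Col6a3 lie below 0 in every row, between -0.89 and -0.38, and the filter of at least 10 counts in every mouse leaves out Col6a5.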

How the data were processed

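Total RNA of iWAT from 12 mice was sequenced by the authors as TruSeq libraries (50 bp single-end, HiSeq4000) and mapped to mm10 with STAR 2.3.1, and tested by the authors with DESeq2. The program and annotation used to count reads are not given in the sources used here. The deposited raw table holds counts of reads per gene without normalization. A deposited normalized table holds log2 values, from which whole reads were recovered for 100% of values (tolerance 0.05 reads). Both tables gave the same reads in all mice for 6725 of 31137 shared genes.

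Raw counts were tested with edgeR 4.0.16 in R 4.3.3 (filterByExpr with a minimum count of 10 and a minimum total of 15, TMM, glmQLFit, two-sided, Benjamini-Hochberg over 15585 genes). CPM are counts scaled by the TMM library size, with a prior count of 2 on the log2 scale. Permutation tests were exact over all 924 assignments of the mice. Ratios are of reads plus 0.5, with 95% intervals from shifting the exact test. Levels per kb use the union of exons in GENCODE vM21. Motifs were searched in RefSeq promoter windows, in which all 5 chains matched. Python 3.11.15 and matplotlib 3.10.9 were used.

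Alternatives were DESeq2 1.42.0, limma-voom and limma 3.58.1 on the normalized table, RLE size factors, other count filters, a covariate (RNA integrity number, or lymphoid score), other ratio pseudocounts (1 and 5), AAV-GFP mice S_2011 and S_2014 left out, and each mouse left out in turn. The recovered reads in edgeR and the subset with a lymphoid score above 6 were added after the data were seen. Fits were tested on simulated data. The genes named are the 5 chains, Col6a4, Notum, Pdgfra, Adipoq, genes of the role lists and the 5 genes most like each abundant chain. The chains and lists were chosen with earlier results of these data known. Protein sequences were not used here.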

Additional observations from a re-analysis of the deposited data

Results flagged for a closer look

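No collagen VI chain had a mouse that stood apart from its group. Of 120 groups of 6 mice checked, for the chains and the genes listed around them, 7 held a mouse that stood apart by Dixon's ratio of gap to range at its 95% critical value, where chance alone gives about 6. AAV-Notum mouse S_2042 was the highest of its group in 5 of them: 110.5 CPM for Itga1 (others 71.1 to 85.2), 95.3 CPM for Pcolce (others 65.6 to 76.2), 1032 CPM for Col1a2 (others 778.9 to 860.9), 2.72 CPM for Col11a1 (others 0.209 to 1.07) and 1.55 CPM for Col24a1 (others 0.157 to 0.622). AAV-Notum mouse S_2032 was the lowest for Col15a1 with 258.6 CPM (others 395.0 to 455.0), and AAV-GFP mouse S_2013 the highest for Tll1 with 2.75 CPM (others 1.51 to 1.97).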

How the results depend on the processing

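No paired analysis was possible because the AAV-GFP and AAV-Notum mice share no replicate numbers. Col6a1, Col6a2 and Col6a3 were lower at an unadjusted p under 0.05 under all 23 alternatives. Their adjusted p ran from 0.00915 to 0.726, from 0.0203 to 0.738 and from 0.00112 to 0.57. DESeq2 called all 3 (log2 fold changes -0.72, -0.67 and -0.81), with 2.32% of all genes called lower. Over the 12 fits without 1 mouse each, the log2 fold change ran from -0.82 to -0.58 for Col6a1, from -0.78 to -0.53 for Col6a2 and from -0.89 to -0.67 for Col6a3. Without AAV-GFP mouse S_2022 edgeR called Col6a1 (adjusted p = 0.0461) and Col6a3 (adjusted p = 0.042). That fit called 146 of 15707 genes lower and 12 higher, against 8 and 0 of 15585 with all mice. Over the same 12 sets of mice the number of chain ratios that passed ran from 0 to 7, and of ratios to other genes from 0 to 1. That last number was 0 without AAV-GFP mice S_2011 and S_2014 and 0 among mice with a lymphoid score above 6. In these sets Col6a3 over Col3a1 had a log2 difference of -0.24 and -0.29, with the smallest p that the exact permutation test can give there (0.00476 and 0.0179), which cannot pass for 1 ratio alone among 15.

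Counts of genes lower at an unadjusted p under 0.05, with mice left out in turn, ran from 2 to 5 for receptors and from 3 to 7 for basement membrane collagens (6.67% to 13.6% of all genes). Adjusted for the RNA integrity number they were 3 and 3 (5.95% of all genes), and without AAV-GFP mice S_2011 and S_2014 they were 2 and 3 (4.95%). Adjusted for the lymphoid score the counts were 1 for receptors, 3 for matrix partners, 1 for processing, 3 for fibrillar and 2 for basement membrane collagens (4.87% of all genes). Among mice with a lymphoid score above 6 they were 1 for receptors, 1 for matrix partners, 2 for processing, 3 for fibrillar and 0 for basement membrane collagens (4.88% of all genes). The share of all genes was 9.54% with all mice and no covariate. These fits hold fewer mice or a further term, and the cause was not tested.

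Signs turned only where the value was close to 0 or did not pass. With the lymphoid score as a covariate, the log2 fold change of Col6a4 was -0.24 and that of Adipoq 0.14. Among mice with a lymphoid score above 6, it was 0.00835 for Adipoq and 0.00809 for Ddost. Col6a2 over Col1a1 was 0.01 without AAV-GFP mice S_2011 and S_2014 and 0.03 with a lymphoid score above 6, and Col6a2 over Pdgfra was 0.03 without mice S_2011 and S_2014. With mice left out in turn, Col6a1 over Col4a1 ran from -0.05 to 0.05 and Col6a2 over Col4a1 from -0.00136 to 0.10. Col6a5 and Col6a6 had 5 to 178 reads per mouse, and how much of their spread is counting error was not tested.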
